A study of Mus musculus with 2 samples.

Results

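The Wnt pathway was examined through 52 genes: 19 Wnt ligands, 3 R-spondins, 16 receptors, 9 secreted inhibitors, 4 TCF/LEF transcription factors and Axin2. The genes came from a list of names that was chosen with earlier results of these data known. The rule that assigns regions to them uses no methylation level. A gene held a region when a differentially methylated region of the authors' table overlapped its RefSeq span or the 2 kb on either side. By this rule 26 of the 52 genes held 95 of the 28141 listed regions.

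The table compares 2 libraries of whole-genome bisulfite sequencing from C57BL/6 mouse adipose progenitors, an assay that reads methylated cytosines as C and the others as T, so that the level of a region is a fraction between 0 and 1. The first library came from cells sorted by magnetic beads for CD137, the product of Tnfrsf9 and a marker of beige adipocyte precursors. The second was made from cells carrying PDGFRα (CD140), a growth factor receptor of mesenchymal progenitors. Both populations were taken from subcutaneous or visceral fat (the labels do not say which for either library), grown, put through an adipogenic cocktail and then given 1 µM dexamethasone, a synthetic glucocorticoid. All groups thus share the differentiation and the steroid. With 1 library per group there is no replicate check, so no difference here has a test or a p-value, and read depth is unknown.

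Wnt proteins are secreted, lipid-modified signals that bind Frizzled receptors together with the co-receptors Lrp5 and Lrp6. This binding disables the complex built on Axin that marks β-catenin for destruction, and β-catenin then acts with TCF/LEF factors on target genes. A β-catenin-independent branch runs through Ror receptors, with Wnt5a as its best-known ligand. In fat, β-catenin signalling, for example by Wnt10b, holds back the differentiation of preadipocytes, and secreted inhibitors relieve that block.

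Wnt pathway genes carried regions of both directions, with lower methylation in PDGFRα+ cells prevailing about as it did in the whole table. Of the 95 regions, 72 (75.8%, 95% Wilson interval 66.3 to 83.3, counting error only) were lower in PDGFRα+ and 23 were higher. This interval and those below treat regions as independent, though neighbouring regions mostly share a direction, so they are likely too narrow. Over all 28141 regions 77.7% were lower, so the share at these genes was near the background. By gene, 18 of the 26 (69.2%) were mostly lower, 7 (26.9%) mostly higher and 1 was split. Over all protein-coding genes with a region, 70.4% were mostly lower and 21.6% mostly higher. The median over the 26 genes of the mean difference (PDGFRα+ level minus CD137+ level) was -0.418, against -0.445 over all protein-coding genes with a region. Every region was lower in 12 genes and higher in 7, and 7 genes held both directions. Of the 26 genes, 11 held only 1 region, so that a single direction was certain there. Among the genes with every region higher, Lrp5 held 4 regions, Wnt5a 3 and the other 5 genes 1 each.

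**Figure D1:**
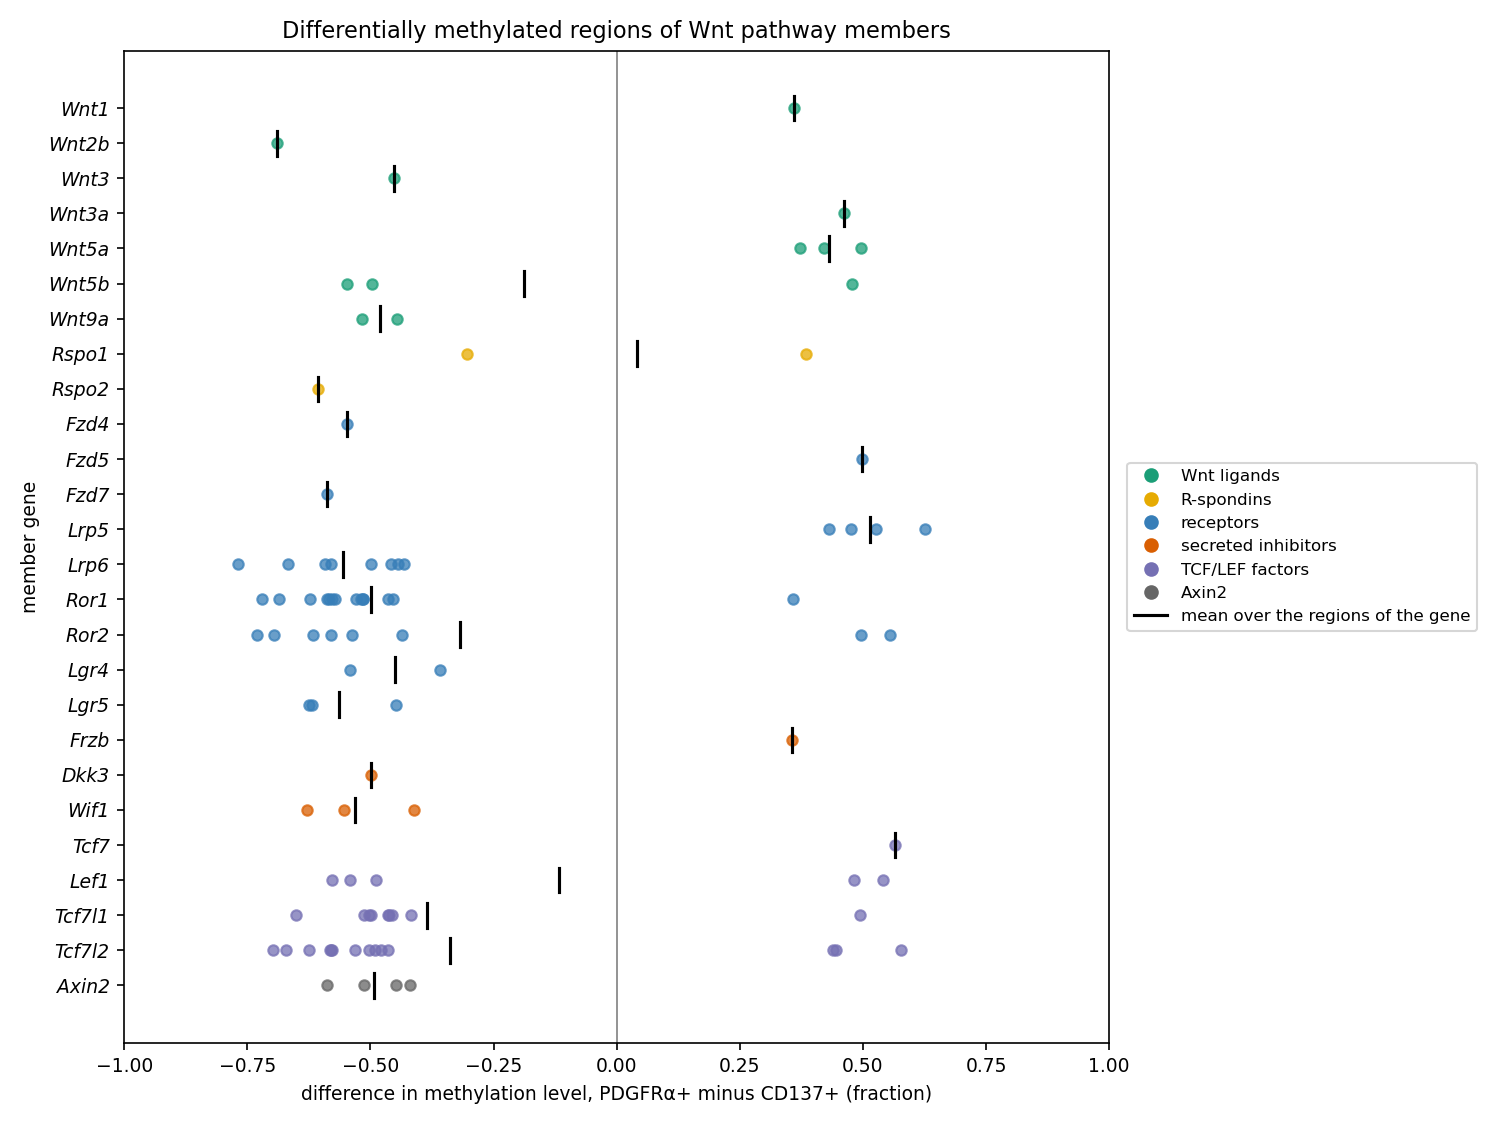
Difference in methylation level (PDGFRα+ minus CD137+, as a fraction) of each region, by gene and coloured by role, with a black bar at the mean over the regions of the gene. Points left of 0 are lower in PDGFRα+. All 8 regions of Lrp6 lie on the left and all 4 of Lrp5 on the right.

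Regions are listed for a difference and were split here by its sign, so low levels set against high ones follow from that split. Over all regions the PDGFRα+ levels overlapped between directions (0.0008 to 0.755 in lower, 0.166 to 0.990 in higher regions). In the 72 lower regions the PDGFRα+ level ran from 0.0534 to 0.526 (median 0.256) and the CD137+ level from 0.580 to 0.964 (median 0.820). In the 23 higher regions the PDGFRα+ level ran from 0.538 to 0.952 (median 0.841) and the CD137+ level from 0.139 to 0.593 (median 0.350). The less methylated library was thus at a low or intermediate level in either direction, and no level was below 0.0534. A difference of at least 0.6 was seen in 18 of the 95 regions (18.9%), against 23.4% of all regions. Of the 18, 17 were lower in PDGFRα+, and over all regions with such a difference 5396 of 6574 were lower. Higher regions at these genes were shorter than lower ones (median 141 against 229 bases) and held more cytosines per 100 bases (5.67 against 4.69). Over all regions the same order held, with 193 against 222 bases and 5.06 against 4.51 cytosines.

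**Figure D2:**
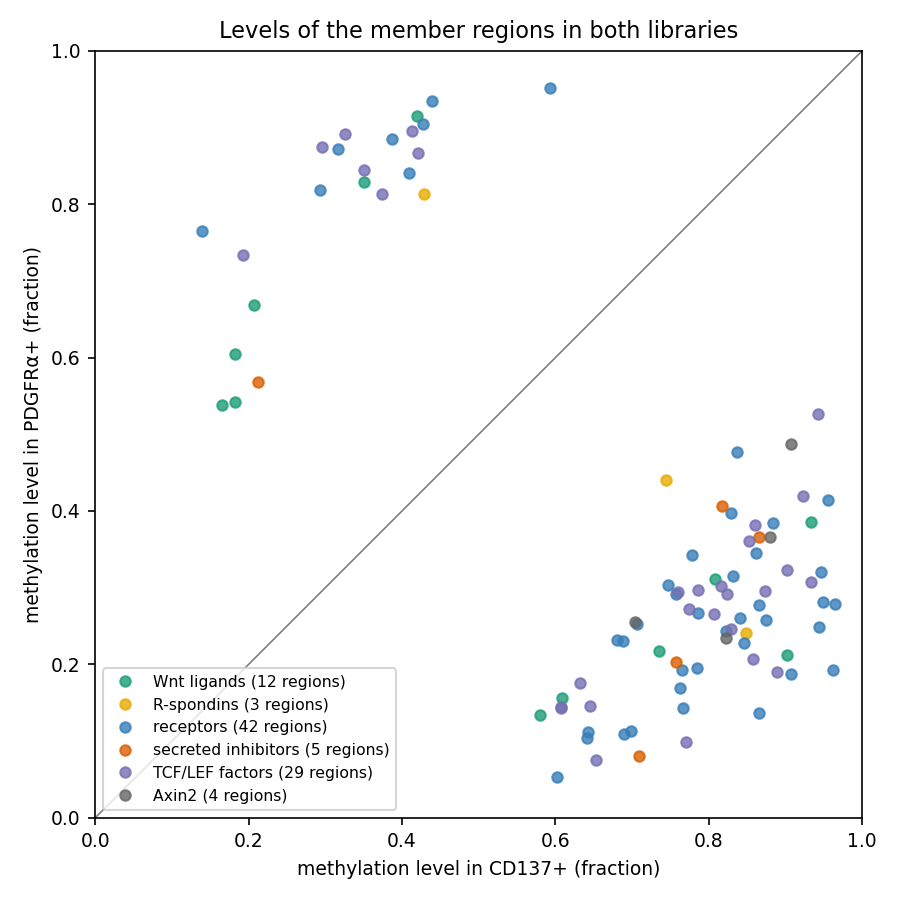
Methylation level of each of the regions in CD137+ (x axis) and in PDGFRα+ (y axis), both as fractions, coloured by role, with the line of equal levels. Lower regions lie under the line at PDGFRα+ levels of 0.0534 to 0.526, and higher regions above it at 0.538 to 0.952.

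Long genes have more room for regions, so members were set beside genes of like length. Of the 10 members of 100 kb or more, 10 held a region, against 81.4% of protein-coding genes of that length. Among the 23 members of 20 to 100 kb it was 11 (47.8%), against 39.3%, and among the 19 shorter members 5 (26.3%), against 12.5%. Without regard to length, 50% of the members held a region, against 29.5% of all protein-coding genes. The density of regions in the long members was 4.16 per 100 kb of span and flanks, against 1.40 in all protein-coding genes of 100 kb or more. Because members were chosen with earlier results of these data known, these shares and densities are descriptions only. The 5 members with 8 or more regions, namely Ror1, Tcf7l2, Tcf7l1, Ror2 and Lrp6, supplied 53 of the 95 regions, 46 of them lower. In the other 21 genes with a region, 26 of 42 regions (61.9%) were lower.

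**Figure D3:**
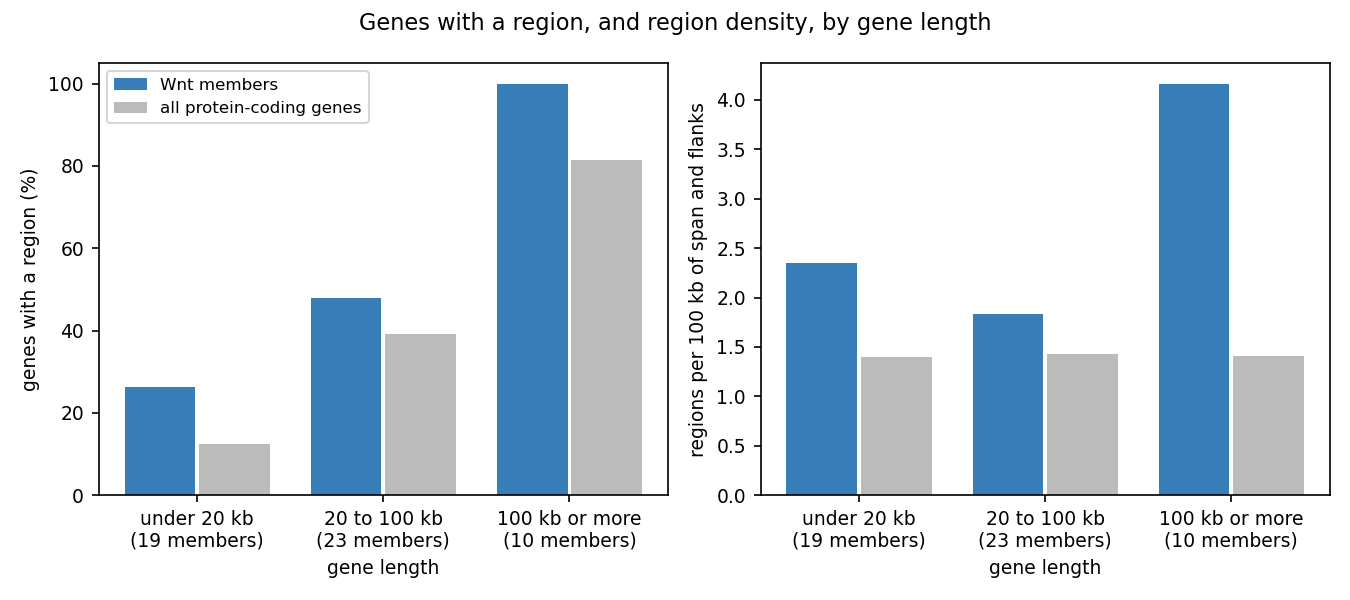
Share of genes with a region (left, in percent) and regions per 100 kb of span and flanks (right), by gene length, for the Wnt pathway members (blue) and all protein-coding genes (grey). Blue stands above grey in each class, most in density at 100 kb or more (4.16 against 1.40).

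Few of the regions lay near a listed transcription start. RefSeq promoter windows, from 250 bases before to 50 bases after a start, were matched for 36 of the 52 genes (44 windows on GRCm38.p6), and 0 of the 44 overlapped a region. Over the protein-coding genome only 1.04% of windows did so, so 0 is near the background. Of the 75 regions at genes with a listed start, 5 (6.67%) lay within 2 kb of one, against 11.3% of all such pairs of a region and a gene. The median distance to a start was 29.0 kb, against 30.9 kb. The 5 starts belong to Wnt5b, Wnt9a, Fzd4, Frzb and Tcf7l1. The 250 bases before each are shown because, of the listed starts, these are the nearest to a region. No start was listed for 16 of the 52 genes, so their promoters could not be searched. Capitals mark CG dinucleotides, the context of the cytosines counted in these regions. The sequences are RefSeq's (GRCm38.p6, 5′ to 3′ on the strand of the gene).
Wnt5b, chr6:119449387-119449636, minus strand: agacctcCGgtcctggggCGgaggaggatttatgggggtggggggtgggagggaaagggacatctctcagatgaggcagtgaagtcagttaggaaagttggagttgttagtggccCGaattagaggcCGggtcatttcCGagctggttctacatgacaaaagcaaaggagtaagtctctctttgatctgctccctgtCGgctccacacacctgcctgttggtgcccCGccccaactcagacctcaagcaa
Wnt9a, chr11:59306680-59306929, plus strand: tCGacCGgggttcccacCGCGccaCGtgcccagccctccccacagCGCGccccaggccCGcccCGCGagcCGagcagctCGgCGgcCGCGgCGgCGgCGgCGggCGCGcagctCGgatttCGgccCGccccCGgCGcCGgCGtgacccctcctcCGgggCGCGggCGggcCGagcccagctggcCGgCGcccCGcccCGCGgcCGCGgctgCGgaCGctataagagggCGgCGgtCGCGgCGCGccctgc
Fzd4, chr7:89404116-89404365, plus strand: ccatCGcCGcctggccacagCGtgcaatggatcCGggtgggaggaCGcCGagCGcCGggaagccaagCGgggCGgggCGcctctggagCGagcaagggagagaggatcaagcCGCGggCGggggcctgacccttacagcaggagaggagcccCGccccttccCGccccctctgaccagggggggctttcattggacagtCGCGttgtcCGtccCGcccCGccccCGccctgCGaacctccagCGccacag
Frzb, chr2:80447397-80447646, minus strand: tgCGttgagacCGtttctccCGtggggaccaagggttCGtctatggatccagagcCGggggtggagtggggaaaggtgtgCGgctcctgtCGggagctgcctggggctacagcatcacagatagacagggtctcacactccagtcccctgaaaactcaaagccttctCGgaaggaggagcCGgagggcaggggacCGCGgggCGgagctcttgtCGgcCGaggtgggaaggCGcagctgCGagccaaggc
Tcf7l1, chr6:72789046-72789295, minus strand: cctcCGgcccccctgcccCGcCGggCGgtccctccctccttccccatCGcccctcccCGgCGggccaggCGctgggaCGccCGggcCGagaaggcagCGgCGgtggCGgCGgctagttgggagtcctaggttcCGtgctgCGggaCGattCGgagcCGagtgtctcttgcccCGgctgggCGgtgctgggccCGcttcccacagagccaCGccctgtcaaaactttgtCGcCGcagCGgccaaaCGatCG

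These promoters differ widely in their content of sites. Wnt9a holds 48 CG in its 250 bases, Tcf7l1 29, Fzd4 25, Frzb 16 and this start of Wnt5b only 7. The Wnt5b region lay 1036 bases upstream of its start, which is 1 of 3 listed for the gene. The others lay downstream, by 1243 bases in Frzb, 1409 in Tcf7l1, 1566 in Fzd4 and 1630 in Wnt9a. Across the 44 windows of 300 bases the median was 24.5 CG, against 13 over all protein-coding windows and 6 in the windows that overlapped a region. The TCF/LEF motif, searched as CTTTGAA or CTTTGAT on both strands, was in 3 of the 44 windows (6.82%), those of Wnt5b, Wnt11 and Dkk1, against 7.57% of all protein-coding windows. The Wnt5b window with the motif is the one printed, and a match of letters does not show binding.

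Of the ligand genes, 7 of 19 held a region, against 29.5% of all protein-coding genes. Their 12 regions were even in direction, 6 lower and 6 higher in PDGFRα+ (50%, 25.4 to 74.6), against 77.7% lower over all regions. Wnt5a, the main ligand of the β-catenin-independent branch, was higher in 3 of 3 regions. The first, chr14:28508895-28509245 with 23 cytosines, was at 0.604 in the PDGFRα+ and at 0.183 in the CD137+ library. The second began 56 bases after its end and had levels of 0.538 and 0.165. The third, chr14:28512203-28512474, had levels of 0.915 and 0.419. All of Wnt5a's regions thus lay within 3.58 kb, and the PDGFRα+ level was the higher one throughout. Wnt5b, its paralogue, was mixed. Its region in the middle of the gene (chr6:119501960-119502355) was higher, at 0.828 in PDGFRα+ and 0.350 in CD137+. Its region near a start was lower, at 0.385 and 0.933, and so was one 630 bases outside the span, at 0.311 and 0.807.

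Ligands that act mainly through β-catenin were split between genes. Wnt1 (0.542 in PDGFRα+, 0.182 in CD137+) and Wnt3a (0.668 and 0.208) were higher in their only regions. Both regions were short and rich in sites, at 9.09 and 18.6 cytosines per 100 bases. Wnt3, at 0.157 in PDGFRα+ and 0.609 in CD137+, was lower in its only region. Wnt9a was lower in both of its regions, at 0.218 and 0.134 in PDGFRα+ against 0.735 and 0.580. Wnt2b had the widest difference of any ligand (0.213 against 0.901), in a region 786 bases outside its span that also lies in the neighbouring gene St7l. The other 12 ligand genes, Wnt2, Wnt4, Wnt6, Wnt7a, Wnt7b, Wnt8a, Wnt8b, Wnt9b, Wnt10a, Wnt10b, Wnt11 and Wnt16, held none, among them Wnt10b, the ligand best known for restraining adipogenesis.

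R-spondins are secreted proteins that strengthen Wnt signals by protecting Frizzled receptors from removal at the cell surface. Rspo1 held 2 regions of opposite direction 93 bases apart. The shorter, chr4:125007600-125007653, had 6 cytosines and was more methylated in PDGFRα+ (0.813) than in CD137+ (0.429). The longer, chr4:125007747-125009118, had 16 cytosines and levels of 0.441 and 0.744. Methylation thus changed sides between the libraries within a short stretch at the high-coordinate end of that gene. Rspo2 was lower in its only region, at 0.241 and 0.849, and Rspo3 held none. Among the receptors for R-spondins, Lgr4 was lower in 2 of 2 regions, which averaged 0.446 in PDGFRα+ and 0.896 in CD137+. Lgr5, a stem cell marker in several epithelia, was lower in 3 of 3 (0.260 and 0.824).

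The co-receptors Lrp5 and Lrp6, paralogues that do the same work beside Frizzled, carried opposite differences. Lrp6 was lower in 8 of 8 regions, with PDGFRα+ levels of 0.170 to 0.397 and CD137+ levels of 0.688 to 0.962. Its widest difference, -0.769, was in chr6:134545008-134545202 (0.193 in PDGFRα+, 0.962 in CD137+). Lrp5 was higher in 4 of 4 regions, with PDGFRα+ levels of 0.765 to 0.904 and CD137+ levels of 0.139 to 0.428. Its widest difference, 0.626, was also the largest of all higher regions at the 52 genes (chr19:3665671-3665858, 0.765 and 0.139). The levels of the 2 genes did not overlap in either library, which follows largely from the opposite signs of their differences. The mean difference was 0.515 over Lrp5 and -0.555 over Lrp6, and whether that contrast recurs between animals was not tested. Lrp5's regions all lay towards the high-coordinate end, at 79.5% to 98.6% of the span, whereas those of Lrp6 ran from 3.11% to 81.9%.

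The Ror receptors, single-pass kinases of the β-catenin-independent branch, held 22 regions between them. Ror1 was lower in 13 of 14, with levels in those 13 of at most 0.346 in PDGFRα+. The region with the largest statistic of the authors' table at any of the 52 genes was one of them (chr4:100363412-100364021, 26 cytosines, 0.279 in PDGFRα+ and 0.964 in CD137+). The widest difference in Ror1 was in chr4:100275786-100275997, at 0.188 and 0.908. The single exception, chr4:100335757-100335828, was highly methylated in PDGFRα+ (0.952) and intermediate in CD137+ (0.593), and with 72 bases and 11 cytosines it was the shortest and densest region of the gene. Ror2 was lower in 6 of 8 regions. The 3 nearest its start, 10.4 to 19.2 kb downstream, had PDGFRα+ levels of 0.104, 0.109 and 0.136 against 0.641, 0.689 and 0.866 in CD137+. Another, chr13:53226457-53226917, was at 0.248 in PDGFRα+ and 0.944 in CD137+. Its 2 higher regions had levels of 0.872 and 0.935 in PDGFRα+ and 0.317 and 0.439 in CD137+. One of the higher regions lay between lower ones, 4.83 kb from the nearest.

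**Figure D4:**
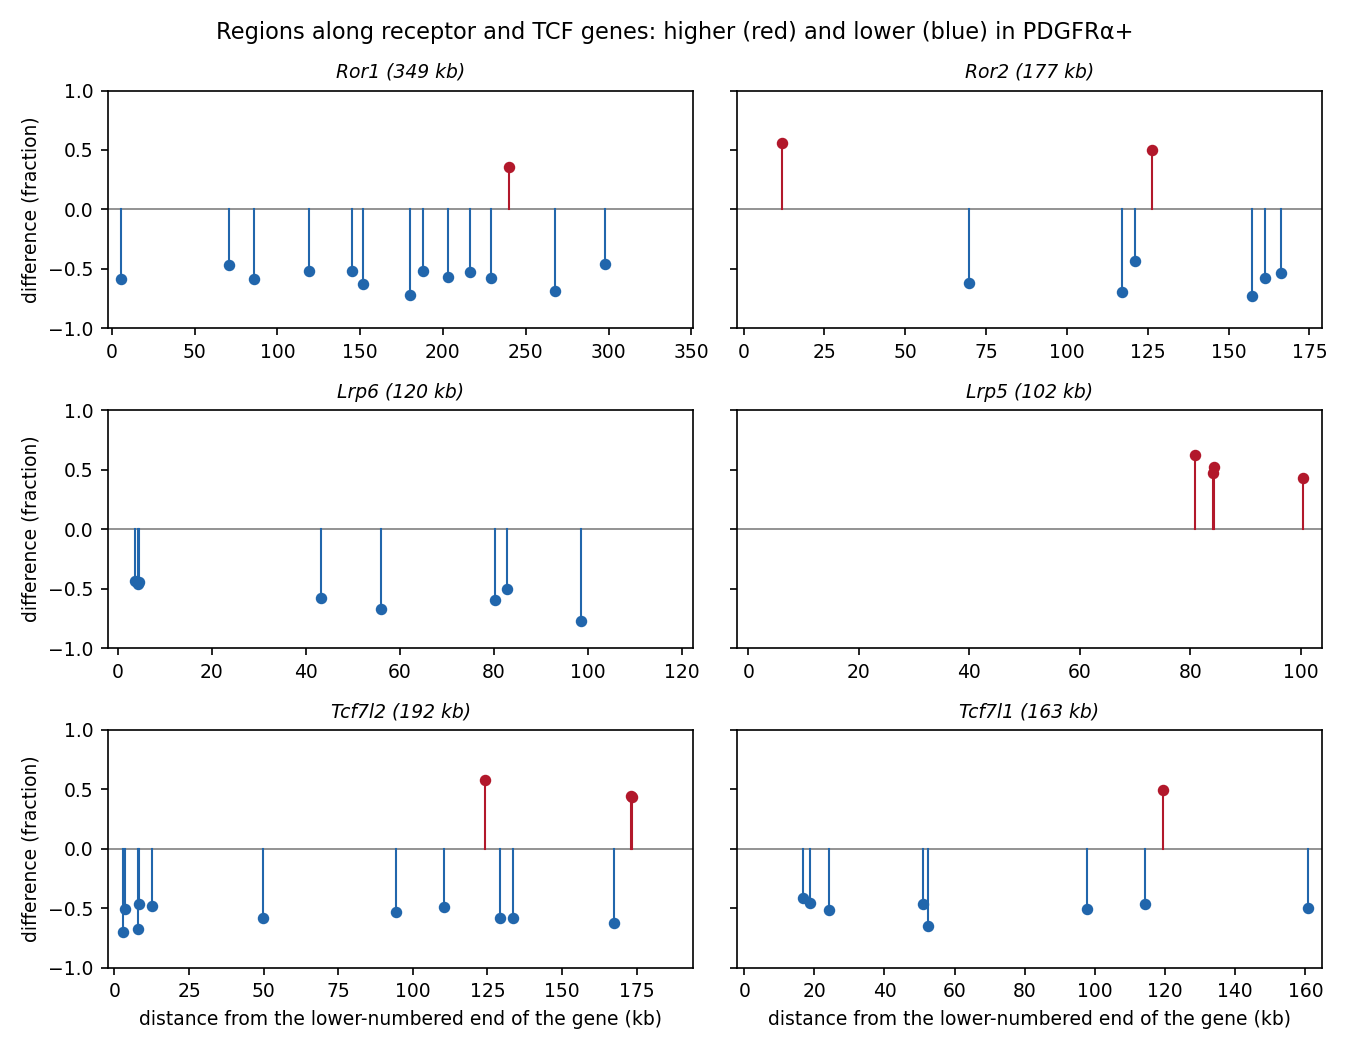
Difference in level (PDGFRα+ minus CD137+, as a fraction) of each region against its distance in kb from the lower-numbered end of the gene, for Ror1, Ror2, Lrp6, Lrp5, Tcf7l2 and Tcf7l1. Blue stems are lower and red stems higher in PDGFRα+: Lrp6 has 8 blue stems, Lrp5 4 red ones near its high-coordinate end, and Tcf7l2 11 blue and 3 red.

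Of the genes of the Frizzled receptors, the primary Wnt receptors, 3 of 10 held 1 region each. They are short genes (median 4.59 kb, against 129 kb for the other 6 receptor genes), and 12.5% of protein-coding genes under 20 kb and 29.5% of all protein-coding genes held a region. Fzd4 was lower, with a PDGFRα+ level of 0.0534, the lowest at any of the 52 genes, against 0.602 in CD137+. Fzd7 was lower as well, at 0.278 and 0.865. Fzd5 was higher, at 0.885 and 0.387, in a region of 481 bases with 36 cytosines, the most of any region at these genes (chr1:64734697-64735177). Fzd1, Fzd2, Fzd3, Fzd6, Fzd8, Fzd9 and Fzd10 held none. Over all 16 receptor genes 34 of 42 regions were lower (81.0%, 66.7 to 90.0), and 21 of 28 without Ror1, against 77.7% of all regions.

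Of the secreted inhibitors, 3 of 9 genes held a region, against 29.5% of all protein-coding genes. Of the 5 regions 4 were lower, against 77.7% of all regions. Wif1, which binds Wnt proteins outside the cell, was lower in 3 of 3, at 0.0809, 0.406 and 0.204 in PDGFRα+ against 0.710, 0.817 and 0.758 in CD137+. Dkk3, a member of the Dickkopf family, was lower in its only region (0.366 and 0.865). Frzb, a decoy receptor of the secreted Frizzled-related family, was higher in its only region, 1243 bases downstream of its start. That region had 7 cytosines in 67 bases, with PDGFRα+ at 0.568 and CD137+ at 0.212. Sfrp1, Sfrp2, Sfrp4, Sfrp5, Dkk1 and Dkk2 held none. Sfrp5 and Dkk1, both described as inhibitors that favour fat cell formation, are short genes of 4.28 and 3.62 kb.

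All 4 TCF/LEF genes held regions. Lef1, Tcf7l1 and Tcf7l2 are of 100 kb or more, a length at which 81.4% of protein-coding genes held a region. The 4 genes held 29 regions, of which 22 (75.9%, 57.9 to 87.8) were lower, against 77.7% of all regions. Their density, 5.56 regions per 100 kb, was the highest of the roles with more than 1 gene. The receptors followed with 3.55, the ligands with 1.81, the secreted inhibitors with 1.47 and the R-spondins with 1.12. Protein-coding genes held 1.40 to 1.43 in the 3 length classes, so the secreted inhibitors were near that background and the R-spondins below it. Tcf7l2, the family member best known in metabolic tissue, held 14 regions and was lower in 11. Its 5 regions in the first 13 kb after the start were all lower, with PDGFRα+ levels of 0.0986 to 0.420 and CD137+ levels of 0.760 to 0.923. The first of them, chr19:55744678-55744784, had the widest difference (0.190 in PDGFRα+, 0.889 in CD137+). Its 3 higher regions lay in the second part of the gene, and 2 of them were 260 bases apart (0.867 and 0.813 in PDGFRα+, 0.420 and 0.374 in CD137+). The third, chr19:55865880-55866366, had levels of 0.874 and 0.296 and stood between lower regions on both sides.

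Tcf7l1, which acts mostly as a repressor, was lower in 8 of 9 regions. Its region nearest the start, chr6:72787179-72787636, had 33 cytosines, a PDGFRα+ level of 0.146 and a CD137+ level of 0.645. Lef1 was mixed, with 3 lower and 2 higher regions. A lower region of Lef1 (0.0754 in PDGFRα+, 0.653 in CD137+) was followed 2.71 kb further on by a higher one (0.734 and 0.192). Tcf7, which encodes TCF-1, a factor of T cell development, was higher in its only region (0.891 and 0.326). Of the 7 higher regions of the family, 3 lay in Tcf7l2, 2 in Lef1, 1 in Tcf7 and 1 in Tcf7l1. They made up 24.1% of the regions of the family, near the 22.3% of all regions that were higher.

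Axin2, both a scaffold of the destruction complex and a widely used target gene of β-catenin signalling, was lower in 4 of 4 regions. PDGFRα+ levels were 0.234, 0.255, 0.488 and 0.367, and CD137+ levels were 0.822, 0.703, 0.908 and 0.880. The first region, chr11:108927105-108927427, lay 6.76 kb downstream of the start with 23 cytosines. Axin2 held 10.8 regions per 100 kb, against 1.43 in protein-coding genes of 20 to 100 kb. Denser were Wnt5a with 3 regions (11.1), and Wnt1 (12.5) and Fzd7 (11.4) with 1 each. Wnt1 and Fzd7 are short genes, in which 1 region is enough for such a density. Across the 12 members with at least 3 regions, 6 had every region in 1 direction (Lrp6, Lgr5, Wif1 and Axin2 lower, Lrp5 and Wnt5a higher). Over protein-coding genes with at least 3 regions the share was 41.3%.

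Further genes of the pathway came from a separate list of 71, also chosen with earlier results of these data known. They held regions in 35 cases, with 29.5% of all protein-coding genes as background. Of their 122 regions 85 (69.7%) were lower, against 77.7% of all regions, and by gene 20 were mostly lower, 7 mostly higher and 8 split. In the destruction complex and its regulators 16 of 23 regions were lower. Of the 10 genes of this group with a region, 6 were mostly lower, 1 was mostly higher and 3 were split, namely Ctnnb1 (β-catenin), Gsk3b and Apc2. Tnik, a kinase that acts with TCF factors and is listed in this group, was lower in 6 of 8 regions. Outside the group, Nkd1, a feedback inhibitor, was lower in 5 of 6. Among genes for the secretion and spread of ligands 19 of 25 regions were lower, with Sulf2, a heparan sulfate sulfatase, lower in 7 of 7 (PDGFRα+ mean 0.260, CD137+ mean 0.805) and the glypican gene Gpc6 in 10 of 13. Wls, the carrier that Wnt proteins need for secretion, was higher in its only region (0.874 and 0.229).

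In the planar polarity and calcium branch, 24 of 36 regions were lower. Prickle1 and Prickle2 were lower in 5 of 5 regions each, and the nearest of these lay 1194 and 865 bases from a start. Daam1, a formin of the polarity branch, was lower in 8 of 9. The calcium-responsive NFAT genes differed, with Nfatc1 higher in 4 of 6, Nfatc2 split in 6 and Nfatc3 higher in 2 of 2. Of 9 genes listed as targets 3 held a region, against 29.5% of all protein-coding genes, and 6 of their 10 regions were higher, against 22.3% of all regions. Cd44, a cell surface receptor of hyaluronan, had 3 of these 6 and Nrcam 1. Sp5, a direct target of β-catenin signalling, was higher in 2 of 2, with mean levels of 0.792 and 0.200, and 1 of them lay 1169 bases from the start. Axin2 and Sp5, both standard targets of the same signal, thus lay on opposite sides. Axin2 is not among the 9, so the share of higher regions at targets rests on 3 genes and on which genes are listed as targets.

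For the 26 genes without a region, the surroundings were followed outward. The nearest region lay at a median of 31.9 kb from the gene, from 4027 bases for Fzd6 to 176620 bases for Fzd8, and in 22 of the 26 (84.6%) it was lower in PDGFRα+, against 77.7% of all regions. Wnt8b at 5089 bases, Wnt2 at 6387, Wnt16 at 7448 and Sfrp2 at 9891 were the other genes with one within 10 kb, all lower. Beside these, the outermost regions counted as members' own lay 630 bases (Wnt5b) and 786 bases (Wnt2b) outside the span. The nearest regions were counted by gene and are not all distinct, unlike the regions behind the 77.7%. Wnt6 and Wnt10a share 1 nearest region, and those of Wnt9b and Wnt10b are also counted at Wnt3 and Wnt1. Only regions listed as different are in the table, so the level of genes with none is not known here.

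A level in a bulk library averages over cells, so a change within cells and a different mixture of cells cannot be told apart. Marker genes of other cell types differed too. Their counts are set against 77.7% lower and 22.3% higher over all regions, and 29.5% of all protein-coding genes with a region. In the immune list 20 of 24 regions, at 9 of 14 genes, were higher in PDGFRα+, and in the endothelial list 15 of 22 at 8 of 8 genes. In the mural list 5 of 5 regions, at 4 of 7 genes, were lower, and in the mesothelial list 12 of 13 at 4 of 5. Of 7 progenitor genes 3 held regions, 13 of 14 lower, with 1 lower region at Pdgfra and none at Tnfrsf9, the gene of CD137. The part of cell mixture in the differences at the Wnt pathway genes, lower or higher, was not tested.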

How the data were processed

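The data are 1 table of regions made by the authors from 1 bisulfite library per group. Per the file headers, the deposited methylation level of each library is a fraction from 0 to 1, the difference is the CD140 level minus the CD137 level, and the area statistic is a deposited score with no fixed range. The deposited lengths and numbers of cytosines are whole numbers. Per the submitters' processing notes the build is mm10. The sources used here do not give the aligner, callers, thresholds or coverage, so depth is unknown and the authors' filter sets what is listed.

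Deposited starts count from 0 and are printed counting from 1. This was checked on RefSeq promoter windows: all 243 starts and 233 ends inside them fell on a cytosine of a CG on either strand when read so. The number of cytosines thus counts both strands, and in 90 regions inside a window it never exceeded the CG cytosines there.

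Regions were assigned to RefSeq spans (GRCm38.p6) with a flank of 2 kb, and all 52 members and 71 other pathway genes matched. Checked against exhaustive comparison in 300 genes, the overlap search differed in 0. Exons were not used here. No region overlapped a member's promoter window, so the promoters printed are those of starts within 2 kb of a region, a choice made after the values were seen. Every member with a region is named. Other pathway genes are named when among the 8 with the most regions or within 2 kb of a start. Wls, Cd44, Nrcam, Ctnnb1, Gsk3b and Apc2 values, and groupings such as genes with 8 or more regions, were chosen after the values were seen. Members and lists were chosen with earlier results of these data known. Alternatives covered minimum differences, cytosines and statistics, flanks, merging and weighting. Software was pandas 2.3.3 with numpy 2.4.6 under Python 3.11.15, scipy 1.17.1 for intervals and matplotlib 3.10.9 for figures.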

Additional observations from a re-analysis of the deposited data

How the results depend on the processing

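Of 82 values under alternatives, 70 stayed within the Wilson interval of a share, 0.05 of a median or 1.5 times a count. A minimum difference of 0.3 removed no region at the members, where the narrowest difference was -0.303. Its values are among the 70 but could not have moved. Ligands, even at 50%, ranged from 40% to 100% lower. R-spondins, at 66.7%, became even at 50% (1 of 2) with at least 5 cytosines. With 1 call per member the share was also 1 of 2, but there the other member, Rspo1, was split and not mostly higher. No other share crossed 50%, and the median kept its sign. The number of members with a region ranged from 18 to 31 (26 reported). The share of lower regions was 88.5% with differences of at least 0.5, where 79.7% of all regions were lower, and 61.9% without the 5 genes with 8 or more regions, an alternative added after the values were seen. With differences of at least 0.5 the share was 100% in ligands (3 of 3 regions), in R-spondins (1 of 1) and in secreted inhibitors (2 of 2). Requiring 10 cytosines gave 100% in R-spondins and in secreted inhibitors (3 of 3), and statistics above the median gave 100% in secreted inhibitors. These shares rest on few regions, and the cause was not tested. The median difference over members, -0.418, was -0.549 with differences of at least 0.5, -0.471 with statistics above the median and -0.349 with 10 kb on either side. Within 1 kb of a listed start there were 0 of the 75 regions, where 5.96% of all pairs of a region and a gene were so near. Within 2 kb there were 5, where the share of all pairs was 11.3%. No paired analysis was possible because each group had 1 library. Depth is unknown, so the precision of single levels cannot be given.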

Other observations

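Neighbouring regions at the members mostly shared a direction. Of 10 pairs less than 1 kb apart, 9 had the same direction (90.0%), against 94.5% of 1719 such pairs in the whole table. Pairs of the same direction were found in Tcf7l2 (3 pairs), Lrp6 (2), Wif1, Axin2, Wnt5a and Lrp5, with gaps of 55 to 504 bases. The exception was Rspo1, where 93 bases separate a higher from a lower region.

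Regions at a member can also belong to another gene. This was so for 6 of the 95 regions: the region of Wnt2b also lies in St7l, 1 region of Lgr5 also lies in A930009A15Rik, and 4 regions of Tcf7l1 also lie in the long noncoding RNA genes Gm31391 and Gm31249. Wnt9b and Wnt10b, which held no region, have as their nearest regions those of their neighbours Wnt3 and Wnt1.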
